A study of Mus musculus with 12 samples.

Results

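Txnip, Arrdc1, Arrdc2, Arrdc3 and Arrdc4 are mouse genes of the alpha-arrestin family, and they were followed across 12 Affymetrix mouse genome arrays of the medial prefrontal cortex (PFC). The members are 5 of 18194 genes that the platform's annotation names by a probe set of their own, and all their probe sets were taken, 9 of 45101 on the array, of which 8 passed the filter on low signal that left 24770 probe sets for testing. Txnip had 2 probe sets, Arrdc1 had 3, Arrdc2 and Arrdc3 had 1 each, and Arrdc4 had 2, of which 1 passed. These genes were chosen by their ethanol differences in these arrays, so those differences, their intervals and the calls made on them are a description from which nothing is read. The differences between genotypes were, as far as is known, not used in the choice, and they were tested. Each value is a log2 signal after robust multi-array averaging (RMA), and values of separate probe sets were not set against each other.

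Male mice, whose age the labels give as 12 weeks and the methods give as that on purchase, were used to handling by 3 days of saline injections and had their PFC taken 4 hours after an intraperitoneal injection. The 4 groups were Fyn-null mice given 3 g/kg ethanol, Fyn-null mice given saline, control mice given 3 g/kg ethanol and control mice given saline. Fyn-null mice (B6;129S7-Fyntm1Sor/J) lack the tyrosine kinase Fyn in all cells, and control mice were B6129SF2/J, a separate stock, so that genotype and stock cannot be told apart. Each group had 3 arrays, with RNA of 3 mice pooled on each, so an n of 3 counts pools and the spread of single animals was not measured.

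Array medians lay between 5.40 and 5.48, and arrays correlated at 0.982 to 0.997 across probe sets. Fyn itself, on the brighter of its probe sets, had values of 8.75 to 9.01 in Fyn-null ethanol pools and 9.33 to 9.70 in control ethanol pools. Under saline its value was 8.89, 8.64 and 9.45 in Fyn-null replicates 2, 3 and 4, against 9.31, 8.74 and 9.65 in control replicates 1, 2 and 3. On this probe set the pools labelled Fyn-null saline replicate 4 and control saline replicate 2 thus had Fyn signals of the other genotype. A score was made over 193 probe sets, Fyn left out, that differed between the ethanol groups in a fit of those 2 groups alone. It was 0.899 to 1.06 in control ethanol pools and -1.03 to -0.951 in Fyn-null ethanol pools, from which it was made. Control saline replicates 1 and 3 scored 0.6 and 0.368, and Fyn-null saline replicates 2 and 3 scored -1.07 and -1.1. The score parted 2 saline pools from their labels as the brighter Fyn probe set did. They were the pool labelled Fyn-null saline replicate 4, at 0.344, and the pool labelled control saline replicate 2, at -0.951. The sources used here do not say whether the Fyn probes match the disrupted stretch of Fyn. Labels were kept as given. The ethanol differences of Txnip, Arrdc2, Arrdc3 and Slc2a1 and the members' comparisons between genotypes are given with and without these pools. Cell type lists, other pathway genes and the figures are given with them only. The mean difference between all 6 ethanol and all 6 saline pools, and their overlap, do not depend on which genotype these pools carried. The standard errors, intervals and calls of that comparison do, since its fit holds the labelled genotype as a term.

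Alpha-arrestins are adaptor proteins with an arrestin fold and, in their tails, short proline and tyrosine motifs that bind ubiquitin ligases of the Nedd4 family. They bring these ligases to membrane proteins, which are then taken up from the cell surface and sorted to endosomes. Txnip, thioredoxin-interacting protein, also binds reduced thioredoxin and restrains it, and its gene is a textbook target of the sugar-sensing factors MondoA (Mlxip) and Mlx. Arrdc1 recruits the ESCRT protein Tsg101 to the plasma membrane, where small vesicles bud. Arrdc3 takes part in the trafficking of beta-adrenergic receptors and integrin beta4, and Arrdc4 is the member closest to Txnip in sequence and, like it, limits glucose uptake.

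The sequences before the start sites are shown for the 3 genes with higher ethanol values and for Arrdc4, whose fitted probe set had overlapping treatments. Each run holds the 250 bases before the RefSeq start site, read 5′ to 3′ on the strand of the gene (build GRCm38.p6), and the windows are chr3:96557707-96557956 for Txnip on the plus strand, chr8:70839721-70839970 for Arrdc2 on the minus strand, chr13:80883134-80883383 for Arrdc3 on the plus strand and chr7:68749239-68749488 for Arrdc4 on the minus strand. Capitals mark matches, on either strand, to 1 of 5 motifs, which were written after these windows had been seen and are spelled out below the sequences.
Txnip: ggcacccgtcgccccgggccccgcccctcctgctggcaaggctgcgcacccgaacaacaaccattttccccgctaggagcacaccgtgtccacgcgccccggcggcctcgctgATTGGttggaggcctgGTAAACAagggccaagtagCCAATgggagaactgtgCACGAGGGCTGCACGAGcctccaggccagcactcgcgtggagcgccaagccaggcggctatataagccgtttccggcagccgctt
Arrdc2: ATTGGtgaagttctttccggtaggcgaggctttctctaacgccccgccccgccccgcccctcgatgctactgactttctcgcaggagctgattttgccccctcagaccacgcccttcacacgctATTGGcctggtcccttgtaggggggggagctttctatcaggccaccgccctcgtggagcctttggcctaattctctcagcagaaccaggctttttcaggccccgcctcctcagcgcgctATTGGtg
Arrdc3: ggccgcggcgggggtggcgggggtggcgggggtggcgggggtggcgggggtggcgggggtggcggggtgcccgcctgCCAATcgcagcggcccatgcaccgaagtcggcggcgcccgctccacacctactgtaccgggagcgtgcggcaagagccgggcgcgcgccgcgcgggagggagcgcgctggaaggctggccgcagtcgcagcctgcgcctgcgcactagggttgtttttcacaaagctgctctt
Arrdc4: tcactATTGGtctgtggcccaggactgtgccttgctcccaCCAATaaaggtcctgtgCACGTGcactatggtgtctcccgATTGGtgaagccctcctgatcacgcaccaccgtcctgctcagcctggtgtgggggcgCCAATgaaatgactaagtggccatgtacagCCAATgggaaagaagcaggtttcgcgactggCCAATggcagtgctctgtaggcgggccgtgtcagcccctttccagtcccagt

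In the Txnip window the pair of CACGNG with 5 bases between ran from base 85 to base 69 before the start site. This layout is that of a carbohydrate response element, to which MondoA and Mlx bind, and 15 of 32851 RefSeq promoters (0.0457%) held one in the same length. CCAAT, the letters bound by NF-Y, stood 2 times in the Txnip window, 3 times in that of Arrdc2, 1 time in that of Arrdc3 and 6 times in that of Arrdc4, and 33.8% of all promoters held at least 1. GTAAACA, the letters bound by FoxO factors, was found once, in the Txnip window (3.17% of promoters), and CACGTG, the E-box, once, in the Arrdc4 window (6.02%). AGAACA, a glucocorticoid receptor half-site, was in 16.1% of promoters and in no window of the 5 genes. Arrdc3 had 3 windows in the table, and the one shown is the first. The Arrdc1 window (chr2:24935282-24935531, minus strand) matched none of the motifs. These are matches of letters and were not measured as bound sites.

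Txnip stood higher in every ethanol pool than in any saline pool, on both of its probe sets and in both genotypes. On probe set 1415996_at the log2 values were 8.35, 8.11 and 8.11 in Fyn-null ethanol pools and 7.35, 7.09 and 7.08 in Fyn-null saline pools. They were 8.13, 7.74 and 7.86 in control ethanol pools and 7.03, 7.11 and 7.20 in control saline pools. The lowest ethanol pool was control replicate 2 and lay 0.39 above the highest saline pool, Fyn-null replicate 2. The mean difference of ethanol minus saline was 1.02 in Fyn-null mice (standard error 0.118, a 2.02-fold higher signal) and 0.79 in control mice (standard error 0.118, 1.73-fold). In the order of group means, Fyn-null ethanol (8.19 ± 0.14) stood above control ethanol (7.91 ± 0.20), then Fyn-null saline (7.17 ± 0.15) and control saline (7.11 ± 0.09; SD, n = 3 each). Both neighbouring pairs that share a treatment overlapped, and the ethanol pairs did not overlap with the saline pairs.

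The second Txnip probe set, 1415997_at, had values of 6.40, 6.26 and 6.29 in Fyn-null ethanol pools and 5.66, 5.18 and 5.30 in Fyn-null saline pools. In control mice it had 6.08, 6.15 and 6.45 in ethanol pools and 5.62, 5.73 and 4.94 in saline pools. Here too the treatments did not overlap, but the saline pools were spread wider than the ethanol pools, with an SD of 0.31 over the 6 saline pools and 0.14 over the 6 ethanol pools. Ethanol minus saline was 0.94 in Fyn-null mice (standard error 0.188) and 0.80 in control mice (standard error 0.188). Across the 12 arrays both Txnip probe sets correlated at 0.851, whereas their deviations from the group means correlated at 0.0064. In both Fyn-null groups the same pool was highest on both probe sets (replicate 1 under ethanol and replicate 2 under saline), and in both control groups different pools were.

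Arrdc2, a family member with the same ligase-binding motifs, had the widest separation between treatments of the 9 probe sets. Its log2 values were 6.28, 6.12 and 6.30 in Fyn-null ethanol pools and 5.06, 5.25 and 4.84 in Fyn-null saline pools. In control mice they were 6.25, 6.26 and 6.24 in ethanol pools and 4.99, 5.01 and 5.19 in saline pools. Every ethanol pool lay at least 0.88 above every saline pool, and the 3 control ethanol pools were within 0.013 of each other. Ethanol minus saline was 1.19 in Fyn-null mice (standard error 0.104, 2.28-fold) and 1.18 in control mice (standard error 0.104, 2.27-fold). Over both genotypes the difference was 1.18 (standard error 0.070), and 15 of the 24770 probe sets had a higher one. In saline pools Arrdc2 was dim: on those arrays alone its mean lay at the 43.8th percentile of all probe sets, under the 45% removed by the filter, so it passed only through the ethanol pools.

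Arrdc3 was the third gene with higher values in all ethanol pools. Its values were 7.77, 7.77 and 7.50 in Fyn-null ethanol pools and 7.06, 6.90 and 7.10 in Fyn-null saline pools. Control ethanol pools had 8.13, 7.61 and 7.52, and control saline pools 6.99, 6.99 and 7.13. The highest pool, control ethanol replicate 1, stood 0.52 above the next control ethanol pool, and without it the control difference was 0.53 in place of 0.72. The treatments did not overlap, with a gap of 0.36 between the lowest ethanol and the highest saline pool. Ethanol minus saline was 0.66 in Fyn-null mice (standard error 0.143, 1.58-fold) and 0.72 in control mice (standard error 0.143, 1.64-fold).

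**Figure D1:**
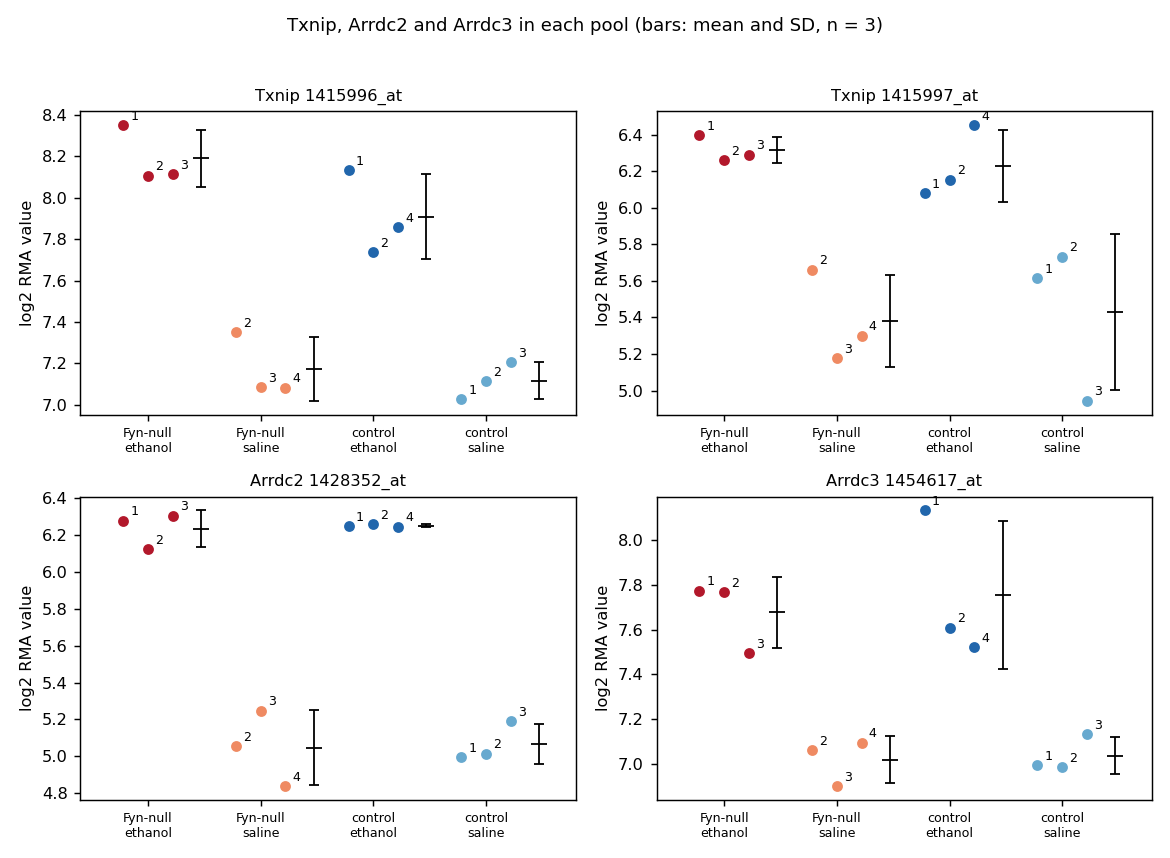
Log2 RMA values (y axis) of both Txnip probe sets, Arrdc2 and Arrdc3 in each pool by group (x axis), with points labelled by replicate number and bars at the mean and SD of 3 pools. All 6 ethanol pools lie above all 6 saline pools on each probe set, with gaps of 0.39 and 0.35 for Txnip, 0.88 for Arrdc2 and 0.36 for Arrdc3.

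Arrdc1, the member that forms vesicles at the plasma membrane, had ethanol and saline values that overlapped in each genotype on its 3 probe sets. On 1424578_at the values were 7.90, 8.35 and 8.03 in Fyn-null ethanol pools and 7.94, 8.00 and 8.06 in Fyn-null saline pools, against 8.07, 8.25 and 8.10 in control ethanol pools and 8.05, 8.07 and 7.82 in control saline pools. Over both genotypes ethanol minus saline was 0.12 on this probe set (95% interval -0.045 to 0.292), 0.095 on 1458613_at (-0.081 to 0.272) and 0.013 on 1444508_s_at (-0.166 to 0.192). On all 3 probe sets Fyn-null ethanol replicate 2 was the highest of its group and Fyn-null ethanol replicate 1 the lowest. Correlations among the 3 probe sets ran from 0.562 to 0.854 over the 12 arrays, and those of their deviations from the group means from 0.596 to 0.83.

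Arrdc4 was dim on both probe sets. The one that passed the filter, 1426818_at, lay at the 45.9th percentile of mean signal, just inside the limit at 45, and had 5.29, 5.23 and 5.17 in Fyn-null ethanol pools and 5.11, 5.55 and 5.00 in Fyn-null saline pools. In control mice it had 4.92, 5.19 and 5.30 in ethanol pools and 5.02, 5.33 and 5.23 in saline pools. Both treatments overlapped, and ethanol minus saline over both genotypes was -0.025 (95% interval -0.236 to 0.187). The other, 1424759_at, lay outside the limit, at the 38.5th percentile, and was not fitted. Its values were 4.79, 4.70 and 4.90 in Fyn-null ethanol pools and 4.77, 4.62 and 4.67 in Fyn-null saline pools, which overlapped, and 4.83, 4.87 and 5.02 in control ethanol pools and 4.69, 4.66 and 4.64 in control saline pools, which did not. At this signal a change of Arrdc4 smaller than the interval would not have been detectable.

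**Figure D2:**
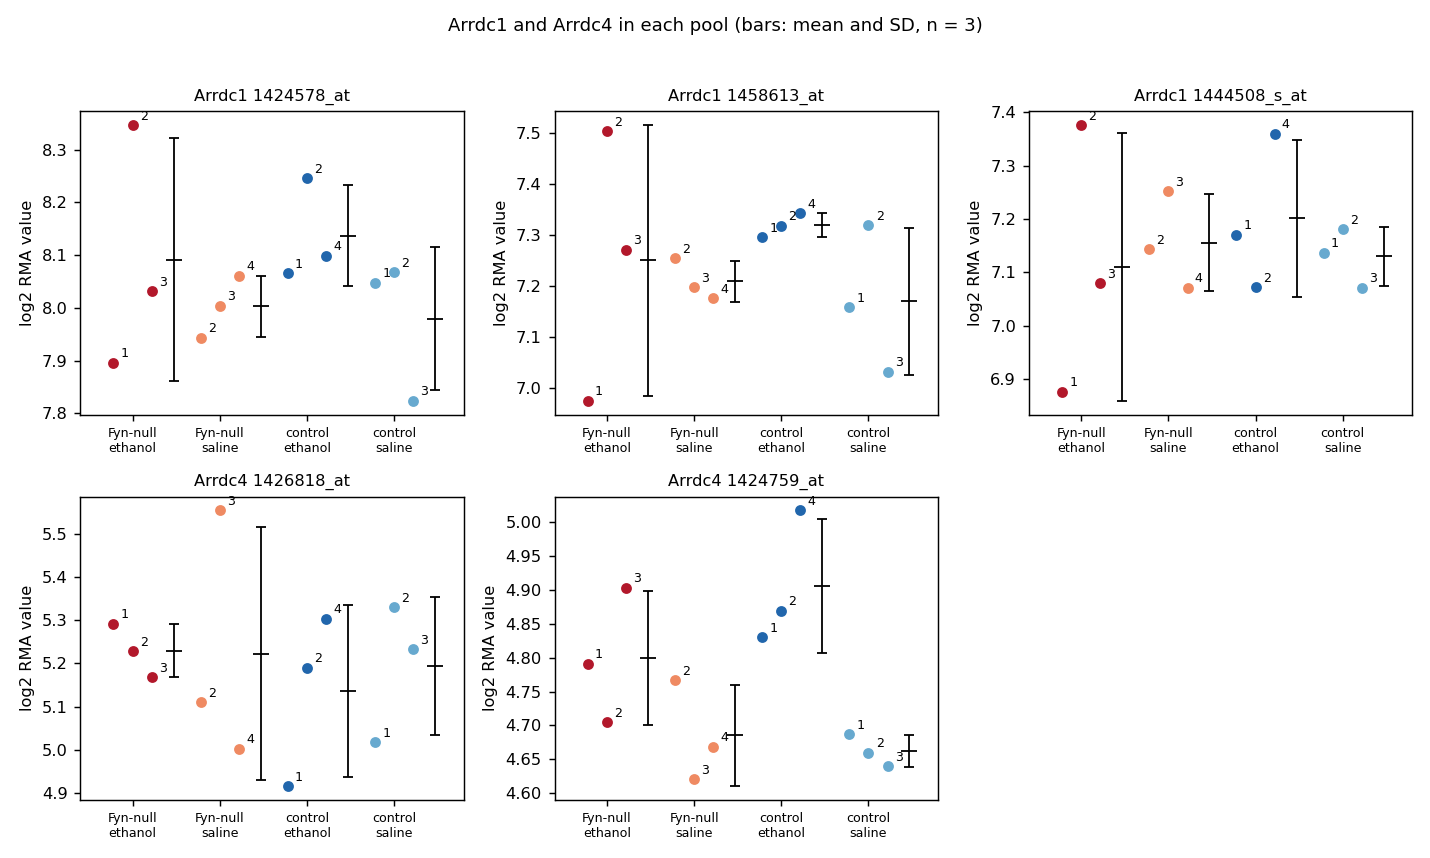
Log2 RMA values (y axis) of the 3 Arrdc1 and 2 Arrdc4 probe sets in each pool by group (x axis), with points labelled by replicate number and bars at the mean and SD of 3 pools. Ethanol and saline pools overlap on all 5 probe sets over both genotypes, and only Arrdc4 1424759_at in control mice has treatments that do not overlap.

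Counts of calls are set beside those of all probe sets, with a call defined as a Benjamini-Hochberg adjusted p under 0.05 in limma over 24770 probe sets. In Fyn-null mice 2 of the 8 fitted member probe sets were called higher with ethanol (Txnip 1415996_at and Arrdc2), where 0.254% of all probe sets were. In control mice 3 of 8 were (these and Arrdc3), where 0.509% of all were. There the call of Txnip 1415996_at was lost with the replicate block, with only the 2 groups fitted and with the Gapdh covariate described below, and that of Arrdc3 was lost when any 1 of 6 arrays was left out (control ethanol replicate 1 or 2, control saline replicate 1, 2 or 3, or Fyn-null saline replicate 2). Over both genotypes 4 of 8 were called higher, where 2.58% of all were, and 0 of 8 were called lower, where 4.22% of all were (unadjusted p under 0.05 for 6025 probe sets in either direction). Values of the 6 ethanol and 6 saline pools did not overlap, with ethanol higher, for the same 4 member probe sets and for 1.32% of all probe sets. Without both pools in doubt 2 of 8 were called in each genotype and 4 of 8 over both. Of all 24770 probe sets that fit called 54 in Fyn-null mice, 147 in control mice and 1309 over both, in either direction. The differences in Fyn-null and in control mice were then 0.97 and 0.79 for Txnip 1415996_at and 0.90 and 0.95 for Txnip 1415997_at. They were 1.08 and 1.16 for Arrdc2 and 0.70 and 0.69 for Arrdc3. The median difference over both genotypes was 0.405 over the 8 member probe sets and -0.021 over all. As the genes were picked for these differences, and Arrdc2 passed the filter only through its ethanol pools, nothing is read from these counts.

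**Figure D3:**
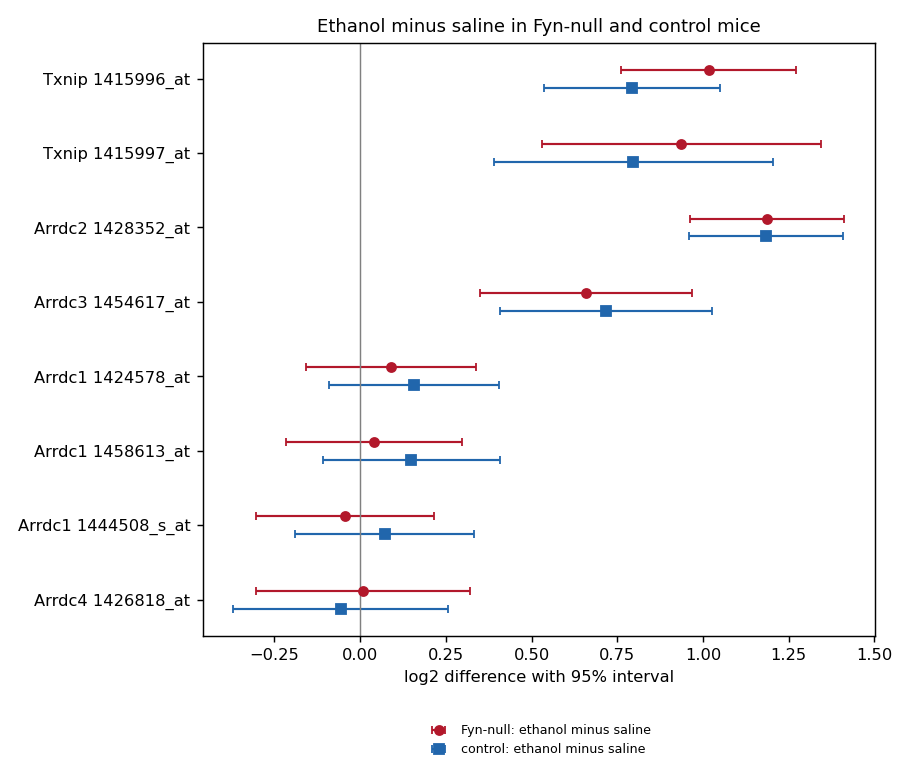
Ethanol minus saline log2 difference (x axis) of the 8 fitted probe sets (y axis) in Fyn-null mice (circles) and control mice (squares), with 95% intervals from limma. Differences of Txnip, Arrdc2 and Arrdc3 lie between 0.66 and 1.19 and those of Arrdc1 and Arrdc4 between -0.057 and 0.157. The genes were chosen on these differences, so the intervals show the spread and are no test.

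Ethanol and saline pools also differed in a sign of RNA quality. The log2 difference between 3′ and 5′ control probe sets of Gapdh was 0.015 to 0.105 in Fyn-null ethanol pools and 0.213 to 0.333 in Fyn-null saline pools, and -0.045 to 0.093 in control ethanol pools and 0.106 to 0.529 in control saline pools. All ethanol pools were thus below all saline pools, though Fyn-null ethanol replicate 1 (0.105) and control saline replicate 1 (0.106) were nearly equal. The same difference for beta-actin was 0.76 to 1.15 in Fyn-null ethanol pools and 1.31 to 1.41 in Fyn-null saline pools, and 0.706 to 1.01 in control ethanol pools and 0.977 to 1.45 in control saline pools. With the Gapdh difference as a covariate, an alternative chosen after seeing the data, the number of all probe sets called over both genotypes was 110 in place of 1686. Of the members, Txnip 1415997_at then had an ethanol difference of 0.46 in place of 0.87, with its call lost, Txnip 1415996_at had 1.00 in place of 0.91, Arrdc2 1.27 in place of 1.18 and Arrdc3 0.81 in place of 0.69. Control saline replicate 3, the pool with the highest Gapdh difference, had the lowest value of Txnip 1415997_at of all 12 pools and the second highest saline value of Txnip 1415996_at.

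**Figure D4:**
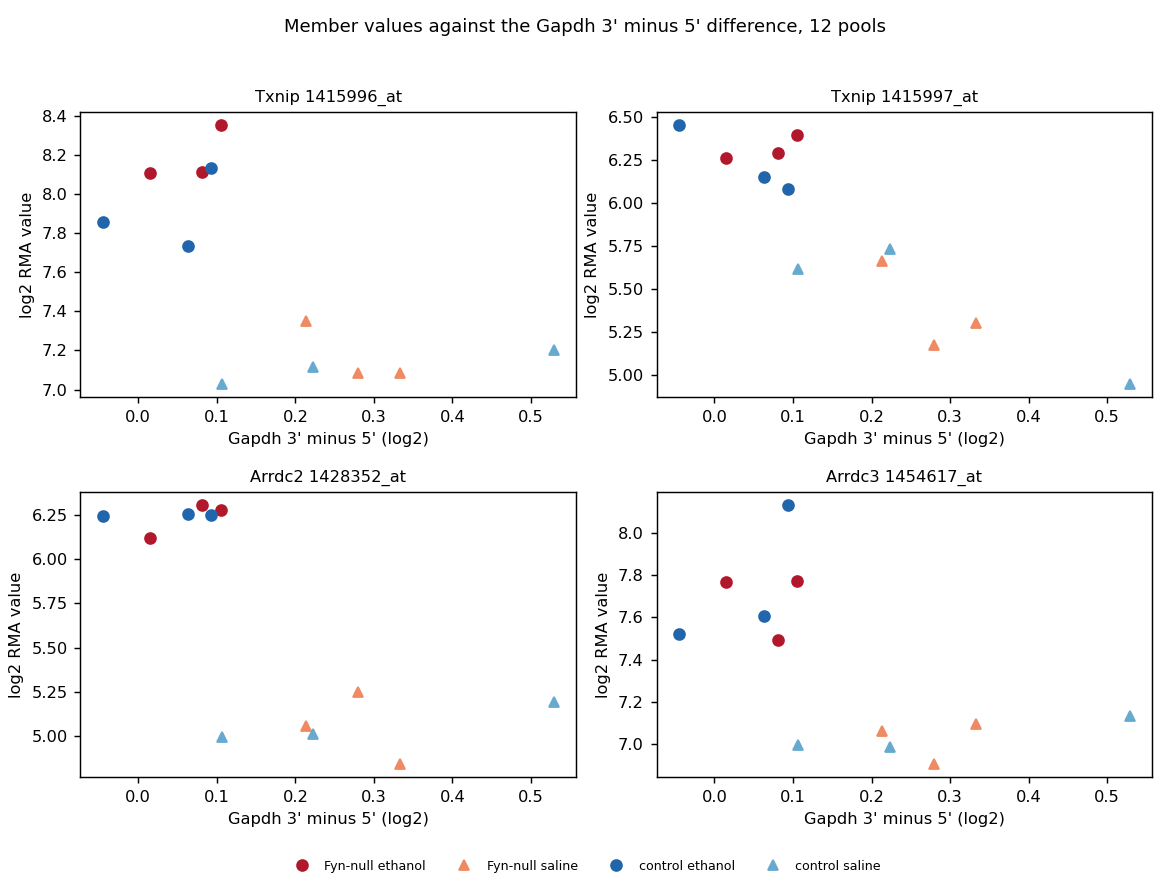
Log2 RMA values (y axis) of Txnip, Arrdc2 and Arrdc3 against the log2 difference of 3′ minus 5′ Gapdh control probe sets (x axis) in the 12 pools, ethanol as circles and saline as triangles. Among the saline pools Txnip 1415997_at is lowest (4.94) at the largest Gapdh difference (0.529), while Arrdc2 and Arrdc3 spread by less than 0.5 over the whole range.

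Markers of endothelial cells moved with treatment as well. The mean over 6 measured of 7 listed endothelial genes was 6.68 to 6.77 in Fyn-null ethanol pools and 7.11 to 7.25 in Fyn-null saline pools, and 6.42 to 6.64 in control ethanol pools and 7.01 to 7.19 in control saline pools, a difference of -0.53 over both genotypes, and 5 of the 6 were called lower over both genotypes. They were Tek (-0.92, adjusted p = 0.00275, limma), Cldn5 of tight junctions (-0.64, adjusted p = 0.000312), the transporter Slco1a4 (-0.57, adjusted p = 0.000259) and the VEGF receptors Kdr (-0.56, adjusted p = 0.00206) and Flt1 (-0.41, adjusted p = 0.00164), and Pecam1 was at -0.084 (adjusted p = 0.626). In such tissue RNA fewer cells of a type and less RNA per cell cannot be told apart. Their part in the Txnip, Arrdc2 and Arrdc3 values was not tested. Of the other cell type lists, microglia were at -0.14 with Aif1 called lower (-0.44, adjusted p = 0.00435), and red blood cells, with 1 of 5 genes measured, at -0.37 (Alas2, adjusted p = 0.0285). Lists of excitatory neurons, interneurons, astrocytes, oligodendrocytes, choroid plexus and striatal projection neurons overlapped between treatments with both genotypes combined and were between -0.049 and 0.051, with 2 genes called higher, Neurod2 (0.29, adjusted p = 0.0114) and Ppp1r1b (0.21, adjusted p = 0.0316). Within a genotype 3 lists did not overlap between treatments. They were excitatory neurons in Fyn-null mice (9.52 to 9.63 in ethanol pools, 9.68 to 9.75 in saline pools), microglia in control mice (7.40 to 7.50 in ethanol pools, 7.55 to 7.79 in saline pools) and striatal projection neurons in control mice (7.08 to 7.19 in ethanol pools, 7.00 to 7.05 in saline pools), beside endothelial cells in both and the red blood cell gene in Fyn-null mice (6.02 to 6.26 in ethanol pools, 6.41 to 6.65 in saline pools). Differences of the brightest genes of these lists and of microglia were -0.16 for Camk2a and -0.061 for Slc17a7, 0.019 for Gad1 and -0.077 for Sst, 0.022 for Slc1a2 and -0.0078 for Gja1, 0.14 for Mbp and 0.10 for Cnp, -0.0088 for Csf1r and 0.027 for C1qa, -0.012 for Clic6 and -0.011 for Ttr, and 0.016 for Rgs9, none of them called. Of the listed genes, 5 of 6 for excitatory neurons and 6 of 6 for interneurons passed the filter. So did 3 of 6 for striatal projection neurons and 3 of 5 for choroid plexus, so passing it does not mark the tissue as cortex. By symbol the array held 4 of the 6 striatal, 5 of the 6 excitatory neuron and 3 of the 5 red blood cell genes.

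Genes of the pathways in which the family works were taken from lists, and over both genotypes 5 of their 64 measured genes (7.81%) were called, where 6.81% of all probe sets were, so the lists as a whole stood near the background. At an unadjusted p under 0.05 there were 16 of 64 (25.0%), beside 24.3% of all. Glucose transporters and hexokinases had 1 of 9 measured genes called higher. It was Slc2a1, the glucose transporter GLUT1 that Txnip takes from the cell surface, at 0.71 (standard error 0.078, adjusted p = 0.000305), and it was also called in Fyn-null mice (0.77, adjusted p = 0.0112) and in control mice (0.65, adjusted p = 0.0197). Without both pools in doubt it was at 0.77 in Fyn-null mice (adjusted p = 0.0352) and at 0.56 in control mice, where its call was lost (adjusted p = 0.065). The neuronal transporter Slc2a3 was at 0.19 (adjusted p = 0.06) and Hk1 at -0.058 (adjusted p = 0.628). Of 8 genes of AMP-activated kinase, which phosphorylates Txnip, 2 were called higher, the beta subunit Prkab2 (0.29, adjusted p = 0.025) and the gamma subunit Prkag2 (0.33, adjusted p = 0.0176). Its kinase Camkk2 was at 0.23 (adjusted p = 0.309) and Prkag1 at 0.029 (adjusted p = 0.807), and 7 of the 8 had differences above 0, with a median of 0.218 against -0.021 over all probe sets.

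Of 5 beta-arrestin and receptor genes 1 was called lower, the receptor kinase Grk5 (-0.42, adjusted p = 0.0064), and the beta-arrestin Arrb1 was at -0.12 (adjusted p = 0.34), as was Grk6 (adjusted p = 0.518). Of 4 genes of the Nlrp3 inflammasome, to which Txnip protein can bind, 1 was called lower, the adaptor Pycard (-0.49, adjusted p = 0.0104), which microglia and other myeloid cells also express, and Il18 was at -0.19 (adjusted p = 0.0853) and Nek7 at -0.030 (adjusted p = 0.796). No gene was called among 9 of the thioredoxin system (Prdx2 0.042, Txn1 -0.061), 7 of the Mondo and Mlx factors (Mnt -0.067, Mxd4 0.16, Mlxip 0.0025), 11 of the Nedd4 family and its adaptors (Ndfip1 0.09, Nedd4 0.069) and 11 of the ESCRT proteins (Vps28 -0.0014, Vps4b 0.09). At an unadjusted p under 0.05 in limma these lists had 2, 1, 4 and 1 genes. Medians of the differences were 0.00015 for the thioredoxin system, -0.067 for the Mondo and Mlx factors, -0.00044 for the Nedd4 family, -0.032 for the ESCRT proteins, 0.050 for glucose transporters and hexokinases, -0.117 for beta-arrestins and receptors and -0.11 for the inflammasome, beside -0.021 over all probe sets. In the 3 comparisons between genotypes and that of the ethanol responses limma called 0 of the 64 genes, and at an unadjusted p under 0.05 there were 4 under ethanol, 3 after saline, 6 over both treatments and 1 for the responses.

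Levels of Txnip 1415996_at, Arrdc2 and Arrdc3 correlated with each other across the 12 arrays, at 0.935 for Txnip with Arrdc2, 0.914 for Txnip with Arrdc3 and 0.878 for Arrdc2 with Arrdc3. Treatment is shared by these points, and after the group means were taken out the values were 0.199, 0.705 and -0.204. The second Txnip probe set, 1415997_at, correlated at 0.847 with Arrdc2 and 0.743 with Arrdc3. With the group means taken out these were -0.39 and -0.312, so the 0.705 of Txnip with Arrdc3 was not seen on both Txnip probe sets. Among 12318 other genes, each by its brightest probe set, those most like Txnip were Pik3ip1 (r = 0.984), Cyp1b1 (0.981) and Jun (0.976), with ethanol differences of 0.80, 0.84 and 0.78. Those most like Arrdc2 were Cebpa (0.99), Trp53inp1 (0.987) and Tsc22d3 (0.983), with 0.54, 1.34 and 1.36. For Arrdc3 they were Klf15 (0.945), Lnx1 (0.941) and Rhoj (0.938), with 0.49, 0.14 and 0.50. The genes nearest to Arrdc1 were Ezr (0.968), Aqp12 (0.942) and Ctse (0.935), and those nearest to Arrdc4 were Gdap2 (0.876), Paqr6 (0.876) and 1600012H06Rik (0.874), all with ethanol differences between -0.014 and 0.15. These are the extremes of a search over all genes and carry no test.

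The question whether loss of Fyn altered the family was tested in 4 comparisons. After saline the 8 probe sets differed between Fyn-null and control pools by -0.052 to 0.058 (adjusted p = 1.00 for each, limma), and 0 of 8 and 0% of all probe sets were called (467 at an unadjusted p under 0.05). For Arrdc2 the 95% interval was -0.244 to 0.206 and for Txnip 1415996_at -0.198 to 0.315. Without both pools in doubt the saline differences were -0.081 to 0.207, again with 0 of 8 called (adjusted p 0.804 to 0.973), where 44 probe sets were called in all.

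Under ethanol the widest difference was that of Txnip 1415996_at, 8.19 ± 0.14 in Fyn-null pools and 7.91 ± 0.20 in control pools (SD, n = 3), 0.28 higher in Fyn-null mice (95% interval 0.024 to 0.537) with an adjusted p of 0.32 in limma. Its groups overlapped, since control replicate 1 (8.13) lay above Fyn-null replicates 2 and 3 (8.11 each). The second Txnip probe set differed by 0.088 (95% interval -0.320 to 0.496), and the other 6 by -0.090 to 0.093. Here 0 of 8 and 0% of all probe sets were called (3380 at an unadjusted p under 0.05). Without both pools in doubt the adjusted p of Txnip 1415996_at was 0.328, again with 0 of 8 called, where 260 probe sets were called in all. Mean levels of some cell type lists differed with genotype here as well. The excitatory neuron list was 9.52 to 9.63 in Fyn-null ethanol pools and 9.87 to 9.99 in control ethanol pools. Its brightest genes were lower in Fyn-null pools (Camk2a -0.76, adjusted p = 0.226, Slc17a7 -0.48, adjusted p = 0.174, limma). Of its 5 measured genes 1 was higher there, Neurod2 (0.13, adjusted p = 0.543, limma). The endothelial list, whose ranges are given above, did not overlap between these groups and was higher in Fyn-null pools. No gene of either list was called, and the part of these lists in the Txnip difference was not tested.

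The ethanol response itself was compared between genotypes. The difference of the responses, Fyn-null minus control, was 0.22 for Txnip 1415996_at (95% interval -0.140 to 0.585), 0.14 for Txnip 1415997_at (-0.437 to 0.717), 0.0038 for Arrdc2 (-0.314 to 0.322) and -0.058 for Arrdc3 (-0.496 to 0.380), and between -0.116 and 0.064 for the others. No adjusted p was under 0.992 in limma, and 0 of 8 and 0% of all probe sets were called (1023 at an unadjusted p under 0.05). For Arrdc2 the interval leaves room for responses that differ by 0.32 in either direction, against responses of 1.19 and 1.18. Without both pools in doubt the differences were 0.18 for Txnip 1415996_at, -0.050 for Txnip 1415997_at, -0.074 for Arrdc2 and 0.0055 for Arrdc3, with 0 of 8 called.

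Over both treatments Txnip 1415996_at averaged 7.68 in Fyn-null pools and 7.51 in control pools, a difference of 0.17 (95% interval -0.015 to 0.355, adjusted p = 0.494, limma). Without the pools in doubt it was 0.21 (adjusted p = 0.297, limma), again with 0 of 8 called, where 669 probe sets were called in all. The other 7 probe sets differed by -0.047 to 0.061, and 0 of 8 and 0% of all were called (2739 at an unadjusted p under 0.05). A missed threshold with 3 pools a group does not show that the genotypes had the same levels. The intervals give the sizes that remain possible if the labels are right, since their fits kept the pools in doubt as labelled.

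**Figure D5:**
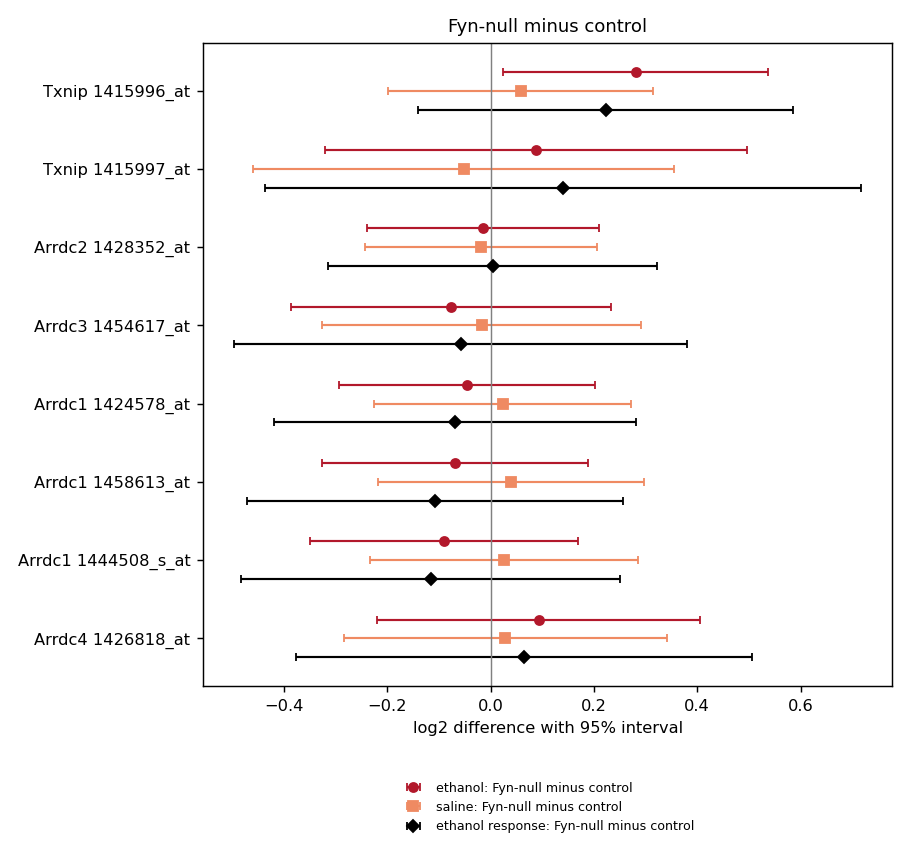
Fyn-null minus control log2 differences (x axis) of the 8 fitted probe sets (y axis) under ethanol (circles), after saline (squares) and for the ethanol response (diamonds), with 95% intervals from limma. Of the 24 intervals 23 include 0, and that of Txnip 1415996_at under ethanol (0.024 to 0.537) does not, with an adjusted p of 0.32.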

How the data were processed

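Log2 RMA values per probe set, deposited by the authors and made with the affy package from 12 arrays of medial PFC, were used as given, with 0 missing values. Their versions, and whether the batch step of the Methods had been run, are not stated in the sources used here. S-scores, on which the study's own tests rest, call for probe-level intensities and were left out. Control probe sets (64) were removed, and so were the dimmest 45% of the other 45037 by mean over all arrays, so that 24770 were tested. A linear model with moderated variances (limma 3.58.1, R 4.3.3) was fitted to the 12 arrays, either with a mean for each of 4 groups or with additive effects of genotype and treatment, and p-values carry a Benjamini-Hochberg adjustment over all 24770. The number of pools sets the precision: the median standard error was 0.108 between groups of 3 pools and 0.0764 for 6 against 6. Members, gene lists and tests were chosen with earlier results of these data known.

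Genes were named by rule: all member probe sets, Fyn, the 2 brightest genes of each pathway list with up to 4 called ones, and the 3 genes most correlated with each member (Mlxip, Flt1 and Pecam1 were named after their values were seen, and other pathway genes stand only as counts). Symbols came from the platform's annotation, and promoters from RefSeq for all 5 genes. Alternatives were other filters, a second quantile normalization, a replicate block, robust eBayes with a trend, arrayWeights, fits restricted to the groups compared, gene means, leaving out each array and, added after the data were seen, leaving out both saline pools in doubt and the Gapdh difference as a covariate.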

Additional observations from a re-analysis of the deposited data

How the results depend on the processing

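The member probe sets were recomputed under each alternative that kept them, which gave 1166 differences. Of these 110 changed sign, none of them called before or after, all in Arrdc1, Arrdc4 or the comparisons between genotypes or of the responses, and none in the ethanol differences of Txnip, Arrdc2 or Arrdc3. Over the alternatives that kept it the ethanol difference of Arrdc2 was 1.08 to 1.29 in Fyn-null mice and 1.15 to 1.28 in control mice. That of Txnip 1415996_at was 0.94 to 1.11 in Fyn-null mice and 0.68 to 0.88 in control mice. The genes were chosen on these differences, so neither the ranges nor the calls below bear on whether they hold.

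Member probe sets called higher in Fyn-null ethanol pools numbered 1 of 5 with a filter of 60%, which removes Arrdc2, and 4 of 8 with arrayWeights, whose fit did not fully converge, in place of 2. Of all probe sets, in either direction, 130 of 18015 were called with that filter and 2781 of 24770 with arrayWeights, in place of 99. In control mice 1 was called with the replicate block, 1 when only those 2 groups were fitted and 1 with the Gapdh covariate, in place of 3. All probe sets called there, in either direction, numbered 36, 18 and 24 of 24770, in place of 355. Over both genotypes 2 of 5 were called with the filter of 60%, in place of 4. That filter called 1530 of all 18015 there in either direction, in place of 1686 of 24770. Txnip 1415996_at in control mice was lost with the replicate block (0.82), with only the 2 groups fitted (0.79) and with the Gapdh covariate (0.88). Arrdc3 in control mice was lost without control ethanol replicate 1 or 2, control saline replicate 1, 2 or 3, Fyn-null saline replicate 2 or both pools in doubt (0.53 to 0.79), and with the replicate block, the 2 groups alone or the Gapdh covariate. In Fyn-null mice Txnip 1415997_at was gained under 5 of 20 alternatives (quantile normalization, robust eBayes with a trend, arrayWeights, the 2 groups alone, without control saline replicate 3) and Arrdc3 under 3 of 22 (arrayWeights, gene means, without control ethanol replicate 1). Comparisons between genotypes and of the responses had 0 members called under every alternative. For the responses 0 of all probe sets were called under any of them. Between genotypes under ethanol arrayWeights called 3975 of 24770, the 2 groups alone 193 and the fit without both pools in doubt 260. That last fit called 669 over both treatments, and every other alternative of the genotype comparisons called at most 129. The saline difference of Txnip 1415996_at was -0.031 to 0.104 when single arrays were left out, and it turned below 0 without Fyn-null saline replicate 2.

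Replicate numbers were not taken as pairs, since of 13 same-numbered pairs of arrays 3 had a residual correlation over 0.1 (range -0.432 to 0.322). With the replicate block 710 probe sets were called over both genotypes in place of 1686.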
